A study of Mus musculus with 7 samples.

Results

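Immediate early genes are the first genes that a stimulated cell transcribes, and 10 of them are described here in whole mouse cerebellum: Fos, Fosb, Junb, Egr1, Egr2, Egr3, Egr4, Nr4a1, Npas4 and Arc. They were chosen by name from the 24421 gene symbols in the files, and all 10 were present and passed the count filter that left 16905 genes for testing. The study compared 4 cerebellar libraries titled CicKO with 3 titled Wildtype, all from C57BL/6 mice. The CicKO genotype is En1-Cre; Cicflox/flox, in which Cre acts in cells of the En1 lineage, which builds the midbrain and the cerebellum, and cuts out the floxed stretch of Cic. The CIC protein represses transcription and forms a complex with ATXN1. The Wildtype genotype is Cicflox/+, so these controls carry a floxed allele and no Cre is named for them. Effects of Cre itself and effects of losing Cic cannot be told apart in this design. The labels used here name no age, sex or litter, nor do they state that each library is a separate animal, and p-values measure the spread between these libraries, which may be technical. The title of each library carries a replicate number (1 to 4 for CicKO, 1 to 3 for Wildtype), and the labels do not say what a shared number marks.

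Immediate early genes need no new protein for their induction. Calcium entry, cAMP and ERK signalling reach the factors CREB and SRF, which already sit at their promoters, and the transcripts rise within minutes and are degraded quickly. Most of the proteins are transcription factors (the AP-1 subunits FOS, FOSB and JUNB, the zinc finger EGR factors, the nuclear receptor NR4A1 and the neuronal factor NPAS4), while ARC acts at synapses in the trafficking of glutamate receptors. In neurons, the cerebellar granule cells among them, they are widely used as markers of recent activity, and several of them also respond to growth factors and stress in other cells.

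The inducing factors recognise sites in the sequence before the transcription start, so the windows of the members on which the results turn are printed. RefSeq windows (build GRCm38.p6) of 250 bases before a start were found for 7 of the 10 members. The capitals mark the core of the cAMP response element recognised by CREB (TGACG, or CGTCA on the other strand), the CArG box recognised by SRF, and the octamer recognised by CIC (TGAATGAA, TCAATGAA, TGAATGGA or TCAATGGA, on either strand). The windows are chr12:85473640-85473889 (plus strand) for Fos, chr15:101266596-101266845 (plus strand) for Nr4a1, chr19:4989972-4990221 (minus strand) for Npas4, chr6:85513590-85513839 (minus strand) for Egr4 and chr10:67537619-67537868 (plus strand) for Egr2, each written 5′ to 3′ along the gene.
Fos: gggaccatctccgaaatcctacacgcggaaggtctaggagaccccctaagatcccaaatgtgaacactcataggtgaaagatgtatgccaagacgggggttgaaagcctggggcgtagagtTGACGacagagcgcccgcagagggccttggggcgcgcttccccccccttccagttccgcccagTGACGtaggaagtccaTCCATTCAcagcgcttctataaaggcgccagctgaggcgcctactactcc
Nr4a1: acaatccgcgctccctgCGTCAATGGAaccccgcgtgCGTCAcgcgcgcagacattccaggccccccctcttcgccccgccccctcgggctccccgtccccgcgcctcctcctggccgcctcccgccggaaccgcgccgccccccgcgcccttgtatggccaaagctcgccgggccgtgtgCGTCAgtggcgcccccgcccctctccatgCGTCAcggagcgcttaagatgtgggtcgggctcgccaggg
Npas4: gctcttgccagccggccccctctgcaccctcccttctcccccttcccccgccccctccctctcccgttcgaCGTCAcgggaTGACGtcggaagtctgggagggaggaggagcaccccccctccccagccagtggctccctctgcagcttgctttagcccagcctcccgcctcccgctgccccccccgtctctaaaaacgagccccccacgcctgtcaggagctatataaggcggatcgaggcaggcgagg
Egr4: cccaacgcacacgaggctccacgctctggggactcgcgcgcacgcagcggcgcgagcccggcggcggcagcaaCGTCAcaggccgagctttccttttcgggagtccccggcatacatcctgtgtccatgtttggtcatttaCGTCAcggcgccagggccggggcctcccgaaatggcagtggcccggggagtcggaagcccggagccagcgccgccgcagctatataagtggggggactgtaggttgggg
Egr2: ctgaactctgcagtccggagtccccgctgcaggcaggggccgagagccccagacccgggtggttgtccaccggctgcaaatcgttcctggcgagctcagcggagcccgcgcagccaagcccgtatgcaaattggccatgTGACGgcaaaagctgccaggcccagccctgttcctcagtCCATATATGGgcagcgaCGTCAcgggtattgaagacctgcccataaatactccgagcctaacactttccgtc
All 7 members with a window (also Fosb and Junb) held the core TGACG on some strand in at least 1 window, against 17.8% of 32851 windows of this length over all genes. The members are counted per gene and the share per window, and Egr2 has 5 windows, not all of which held the core. The full palindrome TGACGTCA was in none of the members' windows and in 1.55% of all. Of these 7 members a CArG box was found for Egr2, in 4 of its 5 windows, against 1.47% of all windows. The last 3 of those windows overlap and hold the same box (CCATATATGG), so the matches are 2 distinct boxes. The CIC octamer was found in the windows of Fos (from -50 to -43, counted back from the start) and Nr4a1 (from -231 to -224, where it overlaps a core on its first bases), against 3.19% of all. These are matches of letters in a short window and do not show that a factor was bound. Sites farther than 250 bases before a start, or with other letters, were not searched, so a missing match does not show that a gene lacks a site.

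The libraries held 102653765 to 121285349 gene counts, so that 3 counts correspond to at most 0.0295 CPM (counts relative to library size, here scaled by the trimmed mean of M values, TMM). Cic was at 144 to 147 CPM in the CicKO and 216 to 257 CPM in the Wildtype libraries (log2 fold change of CicKO over Wildtype, written log2FC, -0.66, SE 0.0622, adjusted p = 0.00256). The 2 libraries numbered 3 stood apart: the summed level of 10 choroid plexus markers (such as Ttr) was 8593 CPM in CicKO 3 and 6204 CPM in Wildtype 3, and 48.4 to 146 CPM in the other 5. The results without both are therefore also given.

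Per kilobase of merged exon, Fos was the most abundant member, with a mean level of 25.8 CPM per kb over the 7 libraries. Nr4a1 (12.4 CPM per kb), Egr1 (8.65) and Arc (7.88) followed, and their ranges over libraries overlapped with each other. The ranges of Fos and Nr4a1 also overlapped (11.7 to 43.1 and 7.27 to 19.0 CPM per kb). Junb (3.81 CPM per kb), Egr4 (1.88) and Npas4 (1.78) formed a lower step, below the range of Arc. Fosb was at 0.293, Egr3 at 0.115 and Egr2 at 0.0364 CPM per kb, with Fosb below the range of Npas4 in every library.

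With edgeR and no term but genotype, 0 of the 10 immediate early genes were called at an adjusted p below 0.05, against 2.08% of the 16905 genes tested. Egr4 was the only member with an unadjusted p below 0.05 (16.2% of all genes). DESeq2 called 1 of 10, Egr4 (background 6.89%, with 3.97% higher and 2.92% lower), and limma-voom called 0 (background 1.93%). With the replicate number as a block, edgeR again called 1 of 10, Egr4 (background 3.04%, with 1.83% higher and 1.21% lower). In the block without both libraries of 1 number, 2 (Egr1 and Egr4), 1 (Egr4) and 0 were called without number 1, 2 and 3 (background 4.04%, 2.69% and 1.21%). Without any single library 0 of 10 were called, against backgrounds of 0.511%, 0.927%, 5.03% and 0.636% without CicKO 1 to 4 and 0.595%, 3.36% and 0.598% without Wildtype 1 to 3. The median log2FC of the members was -0.13, against -0.00 over all genes tested, with 9 negative and 1 positive, and with the block it was -0.10, with 5 of each sign.

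Egr4, a zinc finger factor of the EGR family, was lower in every CicKO library than in every Wildtype library. It was at 3.01, 3.79, 2.12 and 2.60 CPM in CicKO 1 to 4 and at 5.32, 7.17 and 4.32 CPM in Wildtype 1 to 3. It was the only member whose groups did not overlap, as was so for 15.4% of all genes (8.36% lower and 7.06% higher in CicKO), and CicKO 2, the highest of its group, lay below Wildtype 3, the lowest of the controls. The means were 2.88 ± 0.707 CPM (SD, n = 4) and 5.60 ± 1.44 CPM (SD, n = 3). The log2FC was -0.96 (SE 0.229, adjusted p = 0.0798), which did not pass. With the replicate block it fell by 0.92 log2 units (SE 0.128, adjusted p = 0.00919), and DESeq2 gave an adjusted p of 0.00146. The same-numbered differences were close to each other, at -0.82, -0.92 and -1.02 (log2) in pairs 1, 2 and 3. A difference below 0 in all 3 pairs was seen for 21.8% of all genes. Without both libraries numbered 3 the log2FC was -0.99 (adjusted p = 0.0513), and with the block it was -0.87 (adjusted p = 0.0730), so neither fit called it there. Over single omissions with genotype only it was -1.12 to -0.74 (adjusted p from 0.0651 to 0.211). Because cerebellum was measured in bulk, fewer cells making a transcript and less transcript per cell cannot be told apart. Egr4 lies on chromosome 6 at 85511121 to 85513589 (GENCODE M21 on GRCm38, minus strand).

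The other EGR genes did not differ detectably between the genotypes. Egr1, the most abundant of the family, was at 45.8, 45.7, 17.5 and 41.9 CPM in CicKO 1 to 4 and at 40.3, 51.9 and 28.5 CPM in Wildtype 1 to 3. The groups overlapped, and the lowest value of each group was that of its library numbered 3. The log2FC of Egr1 was -0.09 (SE 0.373, adjusted p = 0.933), or -0.23 (SE 0.178, adjusted p = 0.573) with the block. It turned positive without CicKO 3 (0.14) and without Wildtype 2 (0.13), and the blocked fit without both libraries numbered 1 called it lower (-0.43, adjusted p = 0.0352). Egr2 and Egr3, known for roles in Schwann cells and in muscle spindles as well as in neuronal activity, were low. Egr2 had 1 to 22 counts per library and Egr3 26 to 99. Egr3 was highest in CicKO 1 (0.975 CPM) and lowest in CicKO 4 (0.247 CPM), so the CicKO libraries spanned all of the controls (0.289 to 0.71 CPM). The log2FC values were -0.14 for Egr2 (SE 0.719) and -0.15 for Egr3 (SE 0.513), with adjusted p = 0.947 and 0.918.

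Fos, the AP-1 subunit most used as a marker of activity, varied with the replicate number and hardly with the genotype. It was at 70.9, 101, 32.2 and 35.0 CPM in CicKO 1 to 4 and at 60.5, 97.5 and 27.6 CPM in Wildtype 1 to 3. In both groups number 2 was highest and number 3 lowest, and the groups overlapped almost completely. The means were 59.9 ± 32.8 CPM (SD, n = 4) and 61.9 ± 35.0 CPM (SD, n = 3). The log2FC was -0.05 (SE 0.594, adjusted p = 0.982). With the block it was 0.17 (SE 0.0594, adjusted p = 0.191), and Fos was slightly higher in CicKO in all 3 same-numbered pairs (0.23, 0.06 and 0.22 on the log2 scale), as were 18.4% of all genes. Without both libraries numbered 3, Fos remained higher in the libraries numbered 2 (101 and 97.5 CPM) than in those numbered 1 (70.9 and 60.5 CPM).

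Nr4a1, an orphan nuclear receptor, had the same order over numbers 1 to 3. It was at 42.6, 65.0, 35.3 and 25.5 CPM in CicKO 1 to 4 and at 41.2, 66.5 and 29.3 CPM in Wildtype 1 to 3. Both libraries numbered 2 lay above all others, and CicKO 4 was lowest. The log2FC was -0.12 (SE 0.394, adjusted p = 0.916), and 0.09 (SE 0.0712, adjusted p = 0.539) with the block. Its relatives Nr4a2 and Nr4a3, from the list of other rapid response factors and named after their values were seen, had log2FC values of -0.77 (SE 0.551) and -0.95 (SE 0.594) and were not called (adjusted p = 0.555 and 0.500). In both of these CicKO 4 was lowest (10.6 and 9.82 CPM) and Wildtype 2 highest (74.7 and 86.6 CPM).

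Junb and Fosb, partners of FOS and JUN proteins in AP-1, were not called either. Junb was at 9.66, 9.92, 5.46 and 7.72 CPM in CicKO 1 to 4 and at 8.99, 12.1 and 7.50 CPM in Wildtype 1 to 3 (log2FC -0.22, SE 0.234, adjusted p = 0.702). Its groups overlapped, with number 2 highest and number 3 lowest in each. The 3′ end of Junb overlaps Prdx2 on the opposite strand of chromosome 8 (Junb at 84974484 to 84978718, Prdx2 at 84969587 to 84974834), and the strand setting of the counting is not given, so the level of Junb is uncertain there. Fosb was at 1.52, 2.27, 1.13 and 0.646 CPM in CicKO 1 to 4 and at 1.10, 4.70 and 1.43 CPM in Wildtype 1 to 3. Wildtype 2 stood far above the other controls, and the log2FC of -0.79 (SE 0.591, adjusted p = 0.563) became 0.14 without it.

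Npas4, a factor found mainly in neurons and induced by calcium entry, was at 6.88, 9.44, 5.36 and 7.69 CPM in CicKO 1 to 4 and at 5.16, 13.4 and 3.57 CPM in Wildtype 1 to 3. The control libraries spanned the CicKO libraries on both sides, with Wildtype 2 highest and Wildtype 3 lowest of all 7. Its log2FC was -0.01 (SE 0.450, adjusted p = 0.996), 0.15 with the block (adjusted p = 0.759) and 0.75 without Wildtype 2 (adjusted p = 0.155). Arc was the steadiest member. It was at 24.2, 29.0, 20.7 and 22.4 CPM in CicKO 1 to 4 and at 24.1, 25.5 and 22.6 CPM in Wildtype 1 to 3, and its highest library was 1.40 times its lowest. The log2FC of Arc was 0.00 (SE 0.110, adjusted p = 0.995). Without both libraries numbered 3, the log2FC was -0.19 for Fos, -0.97 for Fosb, -0.21 for Junb, -0.05 for Egr1, -0.08 for Egr2, -0.29 for Egr3, -0.28 for Nr4a1, -0.22 for Npas4 and 0.02 for Arc. Their adjusted p-values ran from 0.600 (Junb) to 0.951 (Egr2), and 0 of 10 were called (background 2.38%).

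**Figure D1:**
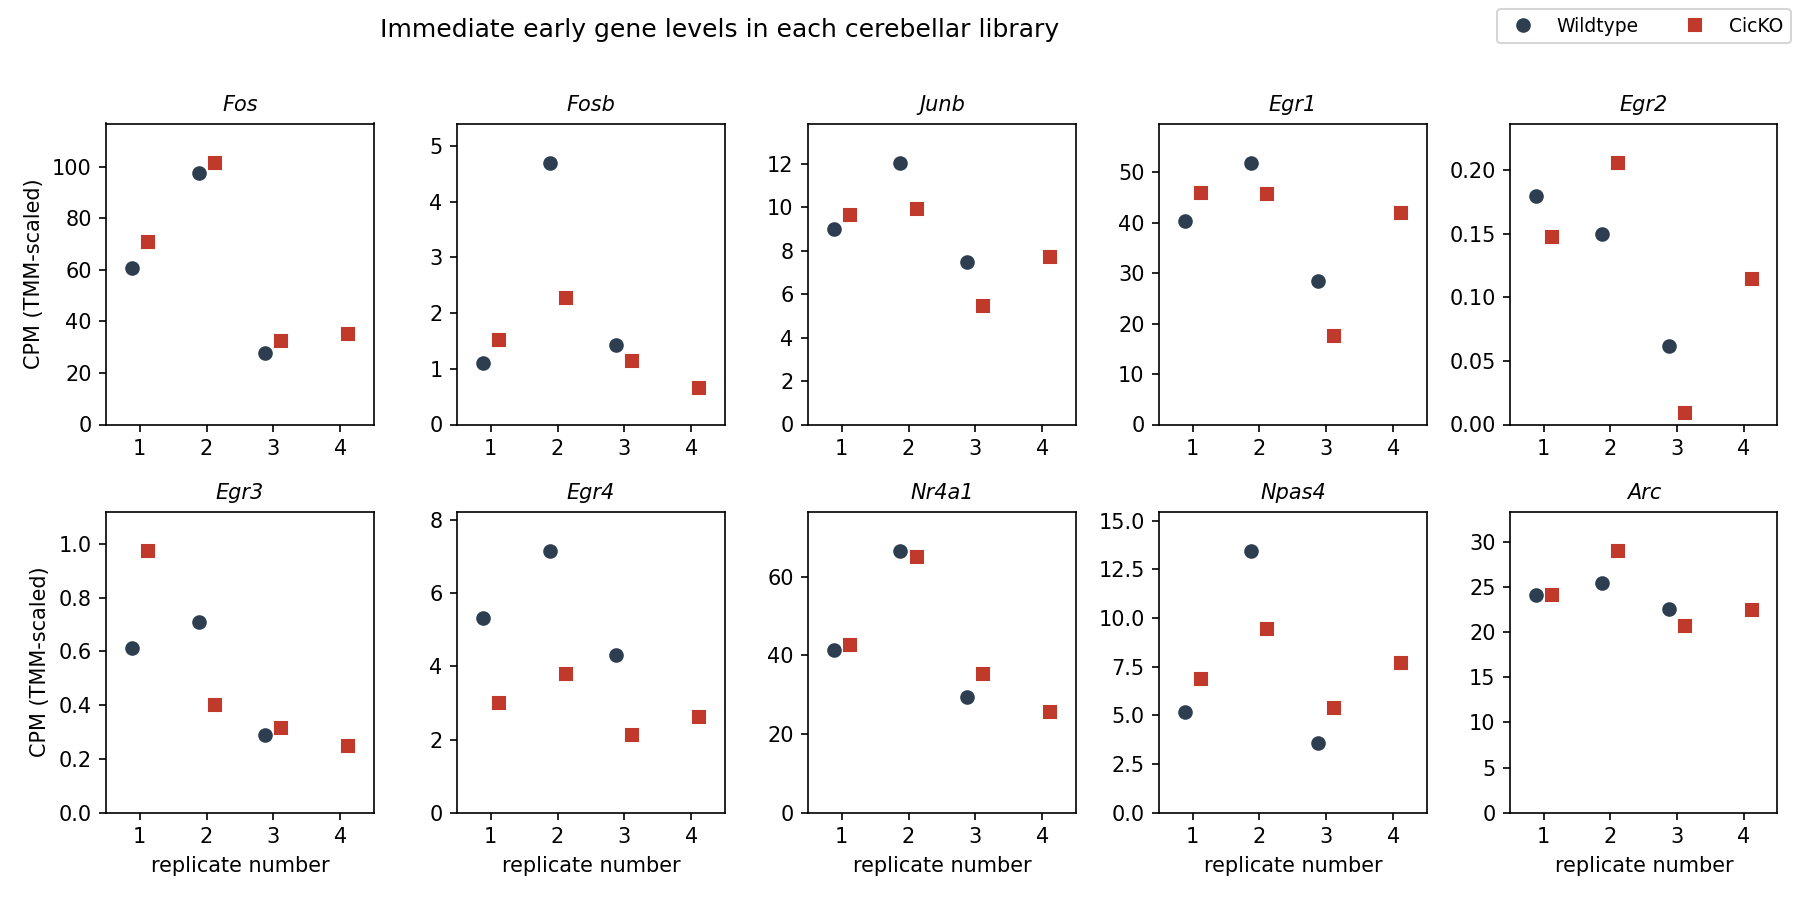
TMM-scaled CPM (vertical axis, from 0) of each immediate early gene against the replicate number in the library title (horizontal axis), with 1 point per library, circles for Wildtype (n = 3) and squares for CicKO (n = 4). For Fos and Nr4a1 the points of 1 number lie together and number 2 is highest, whereas for Egr4 each square lies below every circle.

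The spread of these genes among libraries was wide. The SD of log2 CPM within groups had a median of 0.63 over the 10 members and of 0.12 over all genes tested. Egr2 (1.14), Fosb (0.91) and Fos (0.85) had the widest spread, exceeded by 1.54%, 2.48% and 2.91% of all genes, and Arc (0.17) the narrowest, exceeded by 37.0%. The coefficient of variation of Fos was 54.8% in CicKO and 56.5% in Wildtype. Npas4 was less even between the groups, at 23.1% and 71.7%. Counting error is large for Egr2, with 1 to 22 counts, and small for Fos, with 3151 to 10435.

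Several members lay close to a common profile over the libraries, and Egr2, Fosb and Egr3 lay farthest from it. The distance used takes in the size of the differences as well as the order of the libraries. The root mean square difference of a member's centred log2 CPM from the mean over the 10, of which it is part, was 0.168 for Junb, 0.255 for Nr4a1, 0.269 for Egr1 and 0.310 for Fos. It was 0.360 to 0.390 for Arc, Egr4 and Npas4, 0.460 for Egr3, 0.549 for Fosb and 0.663 for Egr2, and 4683, 10909 and 12260 genes outside the set lay closer to that mean than the last 3. Wildtype 2 held the highest level of 6 members and lay above the gene's mean over libraries for all 10. CicKO 2 was highest for 3 members and CicKO 1 for 1. CicKO 3 lay below the gene's mean for all 10 members and Wildtype 3 for 9, and both were high in choroid plexus markers. CicKO 4 lay below it for 7 with a choroid plexus sum of 132 CPM, within the range of the other libraries. Whether choroid plexus tissue had a part in these levels was not tested.

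Among the 6 libraries numbered 1 to 3, the replicate number accounted for most of the variation of 9 of the 10 members. Its share of the sum of squares of log2 CPM was 98.3% for Fos, 96.6% for Nr4a1, 83.8% for Egr1, 83.3% for Npas4 and 76.1% to 81.3% for Arc, Junb, Egr2, Fosb and Egr3. The median was 81.0% over the members and 40.8% over all genes tested. Genotype accounted for at most 8.68% of the variation in these 9 members (median over all genes 21.3%). Egr4 was the exception, with 67.1% for genotype and 32.3% for the number, leaving 0.558%. The mean distance between a CicKO and a Wildtype library was smaller for same-numbered than for other pairs for 9 of 10 members (0.17 against 1.16 log2 units for Fos, 0.12 against 0.69 for Nr4a1) and for 53.3% of all genes. For Egr4 both means were 0.92, as they must be where groups do not overlap. Such genes (15.4% of all over the 7 libraries) are among those behind the share of 53.3%, so it is not a like background. These shares describe 6 libraries, and the cause of the likeness within a number was not tested.

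**Figure D2:**
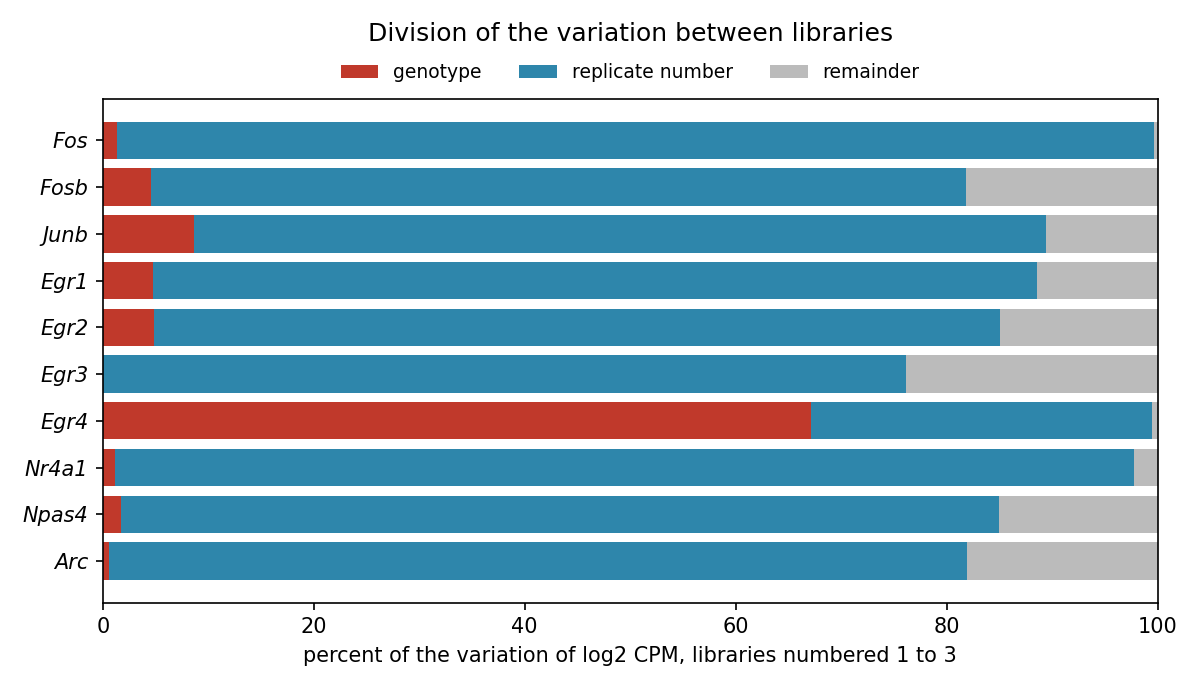
Stacked bars give, for each member, the percent of the sum of squares of log2 CPM over the 6 libraries numbered 1 to 3 that goes with genotype, with the replicate number and with neither. The number takes 76.1% to 98.3% in 9 members, and genotype takes 67.1% in Egr4.

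**Figure D3:**
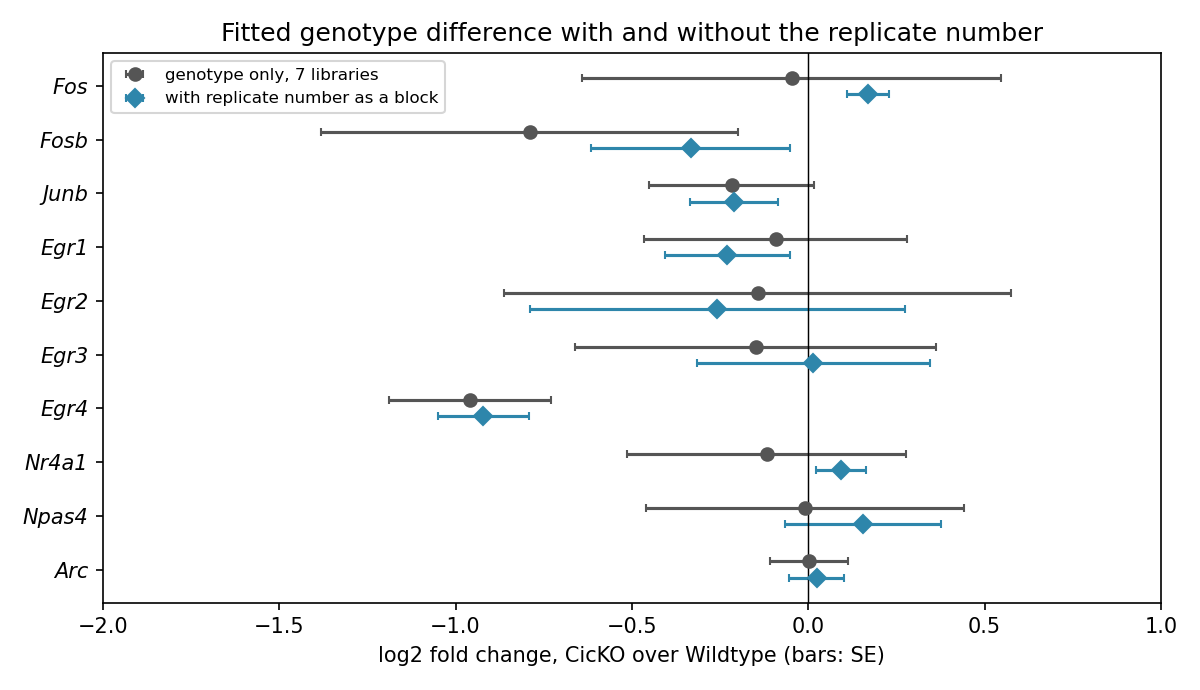
Log2 fold change of CicKO over Wildtype (horizontal axis; bars, SE of the edgeR fit) for each member, with genotype as the only term (circles, 7 libraries) and with the replicate number as a block (diamonds). The SE of Fos drops from 0.594 to 0.0594 with the block, and Egr4 keeps a log2FC near -0.9 in both fits.

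Genes outside the 10 with the most similar profile were ranked by the root mean square difference between their centred log2 CPM and the members' mean over the 7 libraries. Of 13258 candidates with a mean of at least 1 CPM, the closest were Nkx2-9 (0.161), Dusp1 (0.164), Tm6sf2 (0.206), Bcl6b (0.208), D8Ertd82e (0.219) and Slc16a14 (0.221), where the median candidate was at 0.477. Dusp1, a MAP kinase phosphatase that is itself an immediate early gene, was at 48.9, 56.6, 25.3 and 41.3 CPM in CicKO 1 to 4 and at 55.5, 84.3 and 29.7 CPM in Wildtype 1 to 3. It was lower in CicKO in all 3 same-numbered pairs, as were 21.8% of all genes. The log2FC of Dusp1 was -0.39 (SE 0.408, adjusted p = 0.695), or -0.33 (SE 0.0825, adjusted p = 0.0831) with the block.

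Among 23 other rapid response factors, 1 was called higher (background 1.25%) and 0 lower (background 0.828%) with genotype only. The called gene was Maff, a small MAF factor, which rose from 1.20 ± 0.169 to 5.32 ± 0.587 CPM (log2FC 2.15, SE 0.154, adjusted p = 0.000932). Fosl2, the FOS relative FRA2, was at 5.95, 11.0, 7.94 and 3.89 CPM in CicKO 1 to 4 and at 11.7, 26.6 and 11.2 CPM in Wildtype 1 to 3. The groups did not overlap, with CicKO lower as for 8.36% of all genes, but the spread within them was wide (log2FC -1.19, SE 0.439, adjusted p = 0.253). With the block Fosl2 fell by 0.92 log2 units (SE 0.146, adjusted p = 0.0214), close to Egr4, and it was not called in the block without both libraries numbered 2 (adjusted p = 0.0667). Gadd45g, a growth arrest gene, had a log2FC of -0.25 (adjusted p = 0.229). The list's median was -0.13.

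Of 19 feedback and effector genes of the rapid response, 3 were called higher (background 1.25%) and 0 lower (background 0.828%). DESeq2 called 3 higher (background 3.97%) and 3 lower (background 2.92%), and the block 3 higher (background 1.83%) and 1 lower (background 1.21%). Spry4, a known CIC target and an inhibitor of receptor kinase signalling, rose by a log2FC of 1.31 (SE 0.0949, adjusted p = 0.000973), and Dusp6, the gene of an ERK phosphatase and also a known CIC target, by 1.05 (SE 0.0797, adjusted p = 0.00105). Plk3, a polo-like kinase, rose from 13.0 ± 2.78 to 21.6 ± 1.29 CPM (log2FC 0.74, SE 0.133, adjusted p = 0.0341). The call of Plk3 ended under 5 of the 7 single omissions (highest adjusted p = 0.149, without Wildtype 3). Those omissions left 0.511% to 0.927% of all genes called, against 2.08% with all 7 libraries. Over single omissions the log2FC of Plk3 was 0.61 to 0.92. Its call also ended without both libraries numbered 3 (0.115), and with the share of reads in no feature as a covariate (log2FC 0.46, adjusted p = 0.276). The list's median was -0.09.

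Delayed activity genes, which follow the first wave, included 2 called higher (background 1.25%) and 1 lower (background 0.828%) of 20 tested, with a median of 0.01. DESeq2 called 2 higher (background 3.97%) and 4 lower (background 2.92%), and the block 2 higher (background 1.83%) and 0 lower (background 1.21%). Scg2, which encodes secretogranin II of dense-core vesicles, rose from 193 ± 12.7 to 338 ± 31.1 CPM (log2FC 0.81, SE 0.0834, adjusted p = 0.00312). Vgf, a neuropeptide precursor gene, rose from 15.6 ± 1.68 to 30.9 ± 3.79 CPM (log2FC 0.98, SE 0.112, adjusted p = 0.00577). For both genes all 4 CicKO libraries lay above all 3 controls, as was so for 7.06% of all genes. Both calls ended with the no-feature covariate (adjusted p = 0.0667 for Scg2 and 0.126 for Vgf), with log2FC values of 0.84 and 0.90. With that covariate 46 genes were called higher over all, against 212 with genotype only. The calls of Scg2 and Vgf also ended in the block without both libraries numbered 2 (0.0711 and 0.0568). Pcsk1, the gene of a prohormone convertase, fell from 21.6 ± 6.41 to 10.4 ± 0.803 CPM (log2FC -1.06, SE 0.189, adjusted p = 0.0363). This call was lost with the block (adjusted p = 0.129) and under 5 single omissions (highest 0.143, without Wildtype 3). Those omissions left 0.511% to 3.36% of all genes called, and over single omissions the log2FC of Pcsk1 was -1.27 to -0.87. The call of Pcsk1 was also lost in limma-voom (0.0650), with the no-feature covariate (0.0747) and without both libraries numbered 3 (0.125).

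Upstream activators were not called: 0 of 30 tested passed in either direction, 7 had an unadjusted p below 0.05 (background 16.2%), DESeq2 called 3 higher (background 3.97%) and the median log2FC was 0.00. Those 3 were the genes of ERK-activated kinases Rps6ka5 (0.29, adjusted p = 0.0628), Rps6ka2 (0.24, adjusted p = 0.0905) and Rps6ka3 (0.14, adjusted p = 0.0929), with adjusted p in DESeq2 of 0.00214, 0.0107 and 0.00281. With genotype only, Rps6ka5 was called without both libraries numbered 3 (0.35, adjusted p = 0.0448) and without CicKO 3 (adjusted p = 0.0463), but under no other single omission. Partners and cofactors were also not called with genotype only (0 of 10 in edgeR, 2 with an unadjusted p below 0.05), but the block and DESeq2 each called 2 lower (backgrounds 1.21% and 2.92%). These were Nab1, a corepressor of EGR factors (log2FC -0.45, adjusted p = 0.0526, or 0.0104 with the block), and Rxra, a retinoid receptor that pairs with NR4A1 (-0.44, adjusted p = 0.0843, or 0.0276 with the block). With the block the call of Rxra ended without number 1, 2 or 3 (0.0593, 0.0684 and 0.0944), and that of Nab1 without number 3 (0.0784). With genotype only, Rxra was called without both libraries numbered 3 (-0.47, adjusted p = 0.0229) and without CicKO 3 (adjusted p = 0.00737), but under no other single omission. Nab1 was called without CicKO 2 or CicKO 3 (adjusted p = 0.0252 and 0.0473), but not without both libraries numbered 3 (0.132). Nab2, the second EGR corepressor, had -0.33 (adjusted p = 0.488), and was called only in the block without number 1 (-0.48, adjusted p = 0.00393).

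Heat shock genes, another rapid response, all had negative log2FC values (12 of 12, median -0.27, against -0.00 over all genes). With genotype only, 0 were called higher and 2 lower (background 0.828%), and DESeq2 called 7 lower (background 2.92%). Hsph1 fell from 146 ± 8.54 to 119 ± 2.30 CPM (log2FC -0.30, SE 0.0477, adjusted p = 0.0227) and the cochaperone gene Bag3 from 38.5 ± 2.08 to 28.8 ± 2.56 CPM (-0.42, SE 0.0760, adjusted p = 0.0345). Dnajb1 had -0.31 (adjusted p = 0.112). The number accounted for a median of 7.97% of the variation in this list. The calls of Hsph1 and Bag3 each ended under 5 single omissions (highest adjusted p = 0.097 and 0.157, both without Wildtype 1). Those omissions left 0.511% to 0.927% of all genes called, against 2.08% with all 7 libraries. Over single omissions the log2FC was -0.33 to -0.25 for Hsph1 and -0.48 to -0.37 for Bag3. The calls of Hsph1 and Bag3 were lost with the no-feature covariate (log2FC -0.23 and -0.36, adjusted p = 0.256 and 0.339). With that covariate 12 genes were called lower over all, against 140 with genotype only. The call of Hsph1 was also lost in the block without number 3 (0.270), and that of Bag3 in the block without number 1, 2 or 3 (0.0861, 0.0869 and 0.0831).

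**Figure D4:**
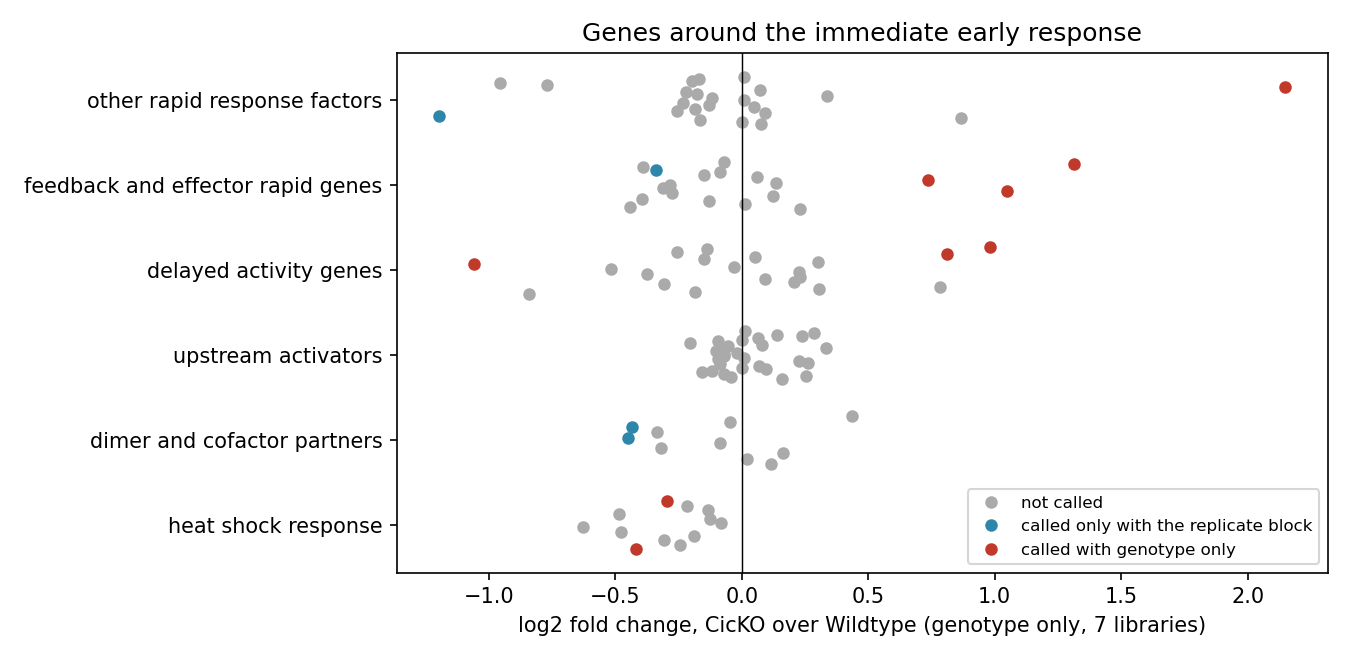
Each point is a tested gene of 1 of the 6 lists, at its log2FC of CicKO over Wildtype (genotype only, 7 libraries), coloured by whether edgeR called it with genotype only, with the replicate block only, or in neither fit. Maff at 2.15 lies farthest to the right, and all 12 heat shock genes lie left of 0.

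Markers of the cell types in the dissection are given beside these results. Summed levels overlapped between genotypes for 12 granule neuron markers (6117 to 7126 CPM in CicKO, 6243 to 7003 CPM in Wildtype), 12 Purkinje cell markers (10509 to 14820.5 and 10776 to 12576 CPM), 8 microglia markers (164 to 229 and 193 to 203 CPM), 12 endothelial and mural markers (214 to 261 and 198 to 229 CPM) and 10 choroid plexus markers. Among these, the endothelial and mural sums were higher in CicKO in all 3 same-numbered pairs (261 against 229, 214 against 198 and 228 against 206 CPM). All 12 Purkinje cell markers had a positive log2FC (median 0.18), with 0 called. The sums of 8 oligodendrocyte markers also overlapped (3792 to 5978 and 5075 to 6373 CPM). They were lower in CicKO in all 3 same-numbered pairs (4148 against 5075, 5978 against 6373 and 4343 against 5606 CPM). All 8 of these had a negative log2FC (median -0.31). With genotype only 1 was called lower (background 0.828%), with the block 3 (background 1.21%) and in DESeq2 3 (background 2.92%). Sums did not overlap for 8 Bergmann glia and astrocyte markers (2128 to 2420 CPM in CicKO, 2850 to 2872 CPM in Wildtype). Of these, Gdf10, Aqp4 and Agt were called lower (background 0.828%). Of the other lists, Cldn11 (oligodendrocyte), Slc4a1 (red blood cell) and Neurod6 (forebrain) were called lower and Tph2 (brainstem) higher. The 7 tested forebrain markers had a median log2FC of 0.30, with 4 positive and 3 negative, so Neurod6 does not stand for its list. In the forebrain and brainstem lists 5 of 8 genes each were under 1 CPM in every library, and only 3 brainstem markers were tested. The call of Tph2 was lost with the block (adjusted p = 0.0810) and in limma-voom (0.0590). Of markers named here after their values were seen, the block added calls for the glial genes Gfap (-0.69, adjusted p = 0.00138), Mobp (-0.44, adjusted p = 0.0143) and Mal (-0.30, adjusted p = 0.0463), all lower. It also added Slco1a4 (endothelial, 0.34, adjusted p = 0.0490), Slc4a5 (choroid plexus, 0.65, adjusted p = 0.0107) and Slc6a2 (brainstem, 3.71, adjusted p = 0.00138), all higher. The sums did not overlap for 8 forebrain markers (194 to 211 and 153 to 184 CPM), for 8 brainstem markers (14.9 to 19.7 and 10.2 to 13.8 CPM) or for 6 red blood cell markers (2.95 to 4.93 and 5.06 to 5.90 CPM), in which the 4 haemoglobin genes were listed at 0 in every library. The part of these cell types in the level of Egr4, Fosl2 or the other genes was not tested.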

How the data were processed

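Cerebellar RNA of 7 libraries (4 CicKO, 3 Wildtype) was measured by RNA sequencing. Per the labels' protocols, amplified cDNA was made from 10 ng of total RNA with priming at poly(A) tails and at random, sheared, and sequenced with inserts of 400 bp. For each library the authors deposited a table of raw counts by gene symbol. The submitters' processing notes name STAR 2.5.3a, HTSeq, DESeq2 and build mm10; the annotation, strand setting and filters were not found in those notes. Summary rows were left out of library sizes and tests; the no-feature row held 16.0% to 19.0% of entries. Depth was 102653765 to 121285349 gene counts per library, and floors cover counting error only.

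Low genes were removed with filterByExpr (R 4.3.3), and the rest were scaled by TMM and tested with the robust quasi-likelihood F test of edgeR 4.0.16, with no term but genotype and Benjamini-Hochberg adjustment over all tested genes (called below 0.05). All adjusted p-values are from this test unless another fit is named. The SE was derived from F as log2FC over its square root. Log2 CPM used a prior count of 2. The procedure was tested on simulated data. DESeq2 1.42.0, limma-voom (limma 3.58.1), other scalings, no filter, a no-feature covariate and single omissions were alternatives.

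Deviations from group means of same-numbered libraries correlated at 0.145, 0.288 and 0.713 across genes, above the limit of 0.1 taken for pairing, so values with the number as a block are given where they change the call of a named gene or marker. Some differently numbered pairs were also above it (CicKO 1 with Wildtype 2, 0.319). CicKO 4 has no partner and adds nothing to the blocked contrast.

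The members and lists were chosen with earlier results of these data known. Named genes are Cic, the 10 members, called genes of each further list or its smallest p-values up to 3, the 6 most similar profiles and called markers; others are said to be chosen after their values were seen. Gene positions and exon lengths are from GENCODE M21 on GRCm38.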

Additional observations from a re-analysis of the deposited data

Results flagged for a closer look

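Among Cic and the 10 immediate early genes, 1 value in the 4 CicKO libraries lay far from the others of its group. Egr1 was at 17.5 CPM in CicKO 3, against 41.9 to 45.8 CPM in the other CicKO libraries. Chance flags about 1 in 20 such groups, and 11 were looked at. CicKO 3 is also a library high in choroid plexus markers, and Wildtype 3, the other such library, had the lowest Egr1 level of the controls.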

How the results depend on the processing

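With genotype only, edgeR called 212 genes higher and 140 lower. DESeq2 called 675 and 497, the no-feature covariate 46 and 12, the replicate block 310 and 204, and single omissions 65 to 493 and 21 to 349. Blocked fits that leave out both libraries of 1 number were added after seeing the data. They called 442 and 247 without number 1, and 61 lower without number 3. Of the 10 immediate early genes, 0 were called with genotype only and under every single omission (0 to 0), 1 with DESeq2, 1 with the block, 2 with the block without number 1 and 1 with the block without number 2.

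Egr4 kept its direction under all alternatives run (-1.15 to -0.74; adjusted p from 0.000373 to 0.253), as did Junb. The other members crossed 0, and the cause was not tested. With the replicate block the log2 fold change of Fos was 0.17 (0.15, 0.22 and 0.14 without number 1, 2 or 3). For Nr4a1 it was 0.093 (0.13, 0.16 and 0.0058), for Npas4 0.15 (0.028 without number 1 and 0.50 without number 2) and for Egr3 0.014 (0.43 without number 2). In the block without number 2, Fosb was 0.063 and Arc -0.059, and without number 3 Egr2 was 0.089. Limma-voom gave 0.21 for Npas4, and the covariate 0.062 for Egr2. Arc, at 0.00, turned to -0.00136 with library size only, -0.00294 with no filter, -0.00968 with limma-voom and -0.00594 with the covariate.

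Single omissions gave -0.43 to 0.44 for Fos, -1.13 to 0.14 for Fosb, -0.29 to 0.14 for Egr1, -0.54 to 0.25 for Egr2, -0.74 to 0.10 for Egr3, -0.10 to 0.068 for Arc, -0.34 to 0.75 for Npas4 and -0.41 to 0.25 for Nr4a1. The members' median was 0.12 without Wildtype 2 and 0.04 without CicKO 3. The 29 genes under each alternative gave 522 results. Of these results, 417 kept direction and side of the threshold, 27 gained a call, 38 lost one and 40 reversed. Calls that the block changed among named genes and markers are given beside them. Egr2 had 1 to 22 counts per library, so its values rest on few reads.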

Other observations

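A few activity genes outside the 10 were singled out after their values were seen. Bdnf, the gene of a neurotrophin, was at 25.9, 30.2, 20.6 and 24.5 CPM in CicKO 1 to 4 and at 19.3, 23.4 and 18.6 CPM in Wildtype 1 to 3. It was higher in all 3 same-numbered pairs, as were 18.4% of all genes. The log2 fold change of Bdnf was 0.31 (SE 0.133, edgeR adjusted p = 0.306, or 0.0715 with the replicate block). Sgk1, a kinase gene induced by glucocorticoids and activity, had -0.34 (SE 0.141, adjusted p = 0.297), and with the block it fell by 0.30 log2 units (SE 0.0609, adjusted p = 0.0402). Homer1, a postsynaptic scaffold gene, was lower in all 3 pairs, as were 21.8% of all genes (-0.28, SE 0.151, adjusted p = 0.408 for Homer1). It was not called with the block (adjusted p = 0.128).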
